A study of Mus musculus with 8 samples.

Results

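The regions described here are stretches of accessible chromatin that lie beside the ends of more than 1 gene at once. They were found among ATAC-seq peaks, which mark DNA open to a transposase, of natural killer (NK) cells from mouse spleen. Peaks of all 8 libraries were merged where they overlapped by at least 1 bp, and merged regions found in no fewer than 2 libraries were kept as consensus regions. A consensus region counted as a paired-end region when a start or end of at least 2 different protein-coding genes lay within 1 kb of it in the mm10 annotation. The rule found 2154 such regions among 50044 consensus regions (4.30%). A further 11108 consensus regions had an end of 1 gene within 1 kb, and 36782 had none.

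The study set mice carrying HSF1 with alanine in place of serines 303 and 307 (S303/7A, MUT) against mice wild-type for HSF1 (WT), all unchallenged. There were 4 MUT mice (replicates 26, 27, 28 and 29) and 4 WT mice (replicates 4, 5, 6 and 7), each a biological replicate with its own library. Splenocytes were enriched with DX5 beads and sorted as CD49b+ CD3e- cells, and 200000 cells per mouse entered the assay. The labels name no strain, age or litter, so any other difference between the MUT and the WT mice cannot be told apart from the genotype. The lists held 44827, 49627, 46623 and 44333 peaks in MUT and 45004, 46102, 45066 and 42695 peaks in WT. They hold no read counts, so depth is unknown, and a missing peak means only that none was called. As a check of the sort, all 7 NK markers examined had a consensus region at a gene end with a peak in 8 of 8 libraries. None of 6 B cell markers did, while 4 of 6 T cell markers, 2 of 6 myeloid markers and 3 of 6 erythroid and platelet markers did.

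Genes whose ends lie close together come in several arrangements. In a head-to-head pair the genes are transcribed away from each other, and their promoters often form a single open, CpG-rich stretch called a bidirectional promoter. Such pairs are known to be frequent among genes that most cells use, such as those for DNA repair, mitochondrial proteins and chaperones. Where a start lies beside the end of a neighbouring gene, a promoter abuts a terminator, and where only ends meet there is no annotated promoter. HSF1 activates the genes of the heat shock response, and some of its classical targets, such as the pair encoding the mitochondrial chaperonins HSP60 and HSP10, are arranged head-to-head.

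Promoter sequences are shown for a few head-to-head pairs and for gene starts with a region nearby that differed between the genotypes. Each stretch runs 5′ to 3′ on the gene's own strand from 250 bases before to 50 bases after its start, from RefSeq on GRCm38.p6, and had a peak over it in 8 of 8 libraries. Capitals mark 4 kinds of motif searched on both strands, namely heat shock elements (GAANNTTC or TTCNNGAA), ETS motifs (CCGGAAG), GC boxes (GGGCGG) and CCAAT boxes (CCAAT). Hspe1 is shown as the head-to-head heat shock gene, Mrps27 as the highest-ranked head-to-head region without overlap and H2bc12 as a histone pair. Rxrb and Cox6b2 are shown because the region over their start was lower in MUT, and Mutyh because a small separate region beside its promoter, whose own region did not pass the test, was called only in WT. The printed stretch itself was covered at 286 to 300 of 300 bp at Rxrb and 222 to 249 bp at Cox6b2 over the 8 libraries. Most of the difference in length at both regions therefore lay outside the printed stretch.
Hspe1 (chr1:55087898-55088197, plus strand): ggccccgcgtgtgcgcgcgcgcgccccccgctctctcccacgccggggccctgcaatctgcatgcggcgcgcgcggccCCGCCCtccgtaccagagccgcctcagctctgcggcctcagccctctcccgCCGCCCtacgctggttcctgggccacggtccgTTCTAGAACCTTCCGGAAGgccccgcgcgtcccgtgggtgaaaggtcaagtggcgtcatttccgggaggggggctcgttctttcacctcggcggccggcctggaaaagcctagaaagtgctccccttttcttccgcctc
Mrps27 (chr13:99344536-99344835, plus strand): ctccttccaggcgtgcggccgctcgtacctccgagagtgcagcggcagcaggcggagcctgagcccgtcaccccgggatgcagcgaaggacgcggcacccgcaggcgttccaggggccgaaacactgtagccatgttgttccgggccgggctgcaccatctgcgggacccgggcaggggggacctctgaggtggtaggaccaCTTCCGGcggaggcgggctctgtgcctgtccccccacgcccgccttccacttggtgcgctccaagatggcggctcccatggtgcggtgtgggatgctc
H2bc12 (chr13:22035571-22035870, plus strand): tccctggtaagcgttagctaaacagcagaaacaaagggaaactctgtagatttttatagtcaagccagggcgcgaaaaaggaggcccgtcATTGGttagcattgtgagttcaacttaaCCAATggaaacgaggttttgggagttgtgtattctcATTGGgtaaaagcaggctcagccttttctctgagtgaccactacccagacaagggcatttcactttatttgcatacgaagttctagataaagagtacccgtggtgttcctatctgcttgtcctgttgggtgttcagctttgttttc
Rxrb (chr17:34031562-34031861, plus strand): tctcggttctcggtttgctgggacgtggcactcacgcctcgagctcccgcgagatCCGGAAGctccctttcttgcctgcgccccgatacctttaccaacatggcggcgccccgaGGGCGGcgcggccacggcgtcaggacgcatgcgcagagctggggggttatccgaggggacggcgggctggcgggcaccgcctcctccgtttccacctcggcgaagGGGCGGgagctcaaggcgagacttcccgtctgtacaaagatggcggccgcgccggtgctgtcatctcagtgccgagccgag
Cox6b2 (chr7:4753045-4753344, minus strand): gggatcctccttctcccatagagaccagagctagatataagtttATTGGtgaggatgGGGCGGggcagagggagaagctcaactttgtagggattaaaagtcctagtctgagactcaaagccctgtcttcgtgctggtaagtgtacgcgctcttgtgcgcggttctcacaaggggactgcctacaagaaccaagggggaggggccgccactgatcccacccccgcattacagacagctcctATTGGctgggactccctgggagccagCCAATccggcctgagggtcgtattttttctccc
Mutyh (chr4:116807484-116807783, plus strand): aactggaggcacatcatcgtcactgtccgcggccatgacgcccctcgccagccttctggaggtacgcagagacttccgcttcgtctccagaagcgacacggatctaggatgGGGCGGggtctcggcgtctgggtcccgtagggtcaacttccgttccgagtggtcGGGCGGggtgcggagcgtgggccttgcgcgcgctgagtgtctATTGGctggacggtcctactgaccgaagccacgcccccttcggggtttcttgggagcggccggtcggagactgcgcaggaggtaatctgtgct

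In the Hspe1 promoter 3 heat shock elements overlapped one another between positions 162 and 179, counted from the first printed base, and the run of capitals there also holds ETS motifs on both strands from 171 to 180. Hspe1 encodes HSP10 and shares this stretch with Hspd1, which encodes HSP60. The Mrps27 promoter held a single ETS motif at 203 to 209. The H2bc12 promoter had 3 CCAAT boxes and, at 44.3%, the lowest GC content of the 6. The Rxrb promoter held an ETS motif and GC boxes, while those of Cox6b2 and Mutyh held CCAAT and GC boxes. A motif match is a description of letters and shows no binding.

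The paired-end regions had ends of 3627 genes within 1 kb, 16.6% of the 21887 protein-coding genes of the annotation. They fell on 1911 distinct combinations of genes, 235 of which had more than 1 region, so regions of the same pair are not independent. Of the 2154 regions, 2099 had ends of 2 genes and 55 had ends of 3. In 1116 the ends of 2 genes lay inside the region itself, and in 109 the second gene was 900 to 1000 bp away, just inside the limit. The regions were 200 to 2542 bp wide with a median of 847 bp, against a median of 766 bp for regions with an end of 1 gene and 420 bp for regions with none. A peak was called in 8 of 8 libraries at 1956 of them (90.8%), against 83.5% of regions with an end of 1 gene and 63.2% of those with none. Just inside the rule's other limit, 45 regions had a peak in exactly 2 libraries. These were weak, with a median score percentile of 7.18, where the percentile is a peak's rank by the authors' unnamed score within its own list and 100 is the top. Chromosomes 19, 7 and 11 had the highest share of paired-end regions among their consensus regions (7.00%, 6.67% and 6.43%), and chromosomes 18, 6 and 1 the lowest among those with any (1.85%, 2.52% and 2.68%).

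Regions were sorted by arrangement with the strand of the genes, which was known for 17492. The largest class was head-to-head pairs that do not overlap, with 650 regions and a median distance of 104 bp between the starts. Another 367 regions lay at head-to-head pairs whose 5′ ends overlap, by a median of 276 bp. A start beside an end made up 470 regions, ends alone 93 and other arrangements of starts 40. The strand of at least 1 gene was not known for the other 534. Gene starts here are the outermost annotated ones, so an internal promoter used by NK cells can lie away from them.

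Regions with head-to-head starts were the strongest and most constant members. Among those without overlap 619 of 650 (95.2%) had a peak in all 8 libraries, as did 346 of 367 (94.3%) of the overlapping ones. The share was 87.4% where a start met an end and 66.7% where only ends met. Median score percentiles over the regions of each class were 80.1 for head-to-head, 76.2 for overlapping, 69.8 for start beside end and 47.7 for ends only. Median widths were 905, 948, 775.5 and 409 bp in the same order. Within each library head-to-head peaks, overlapping ones included, were compared with peaks where a start met an end or only ends met. The 40 regions with other arrangements of starts, at a median percentile of 74.0, were left out of this comparison. Head-to-head peaks were higher in median percentile by 11.1 ± 1.12 points (SD, n = 8 libraries) and wider by 188 ± 5.79 bp. Both differences were above 0 in 8 of 8 libraries (exact two-sided sign-flip test over libraries, p = 0.00781, the smallest it can give). Of this kind 9 comparisons were made, all at this p, and Benjamini-Hochberg adjustment over them leaves it at 0.00781. This test asks only whether the libraries, which share the same regions, differ in the same direction.

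**Figure D1:**
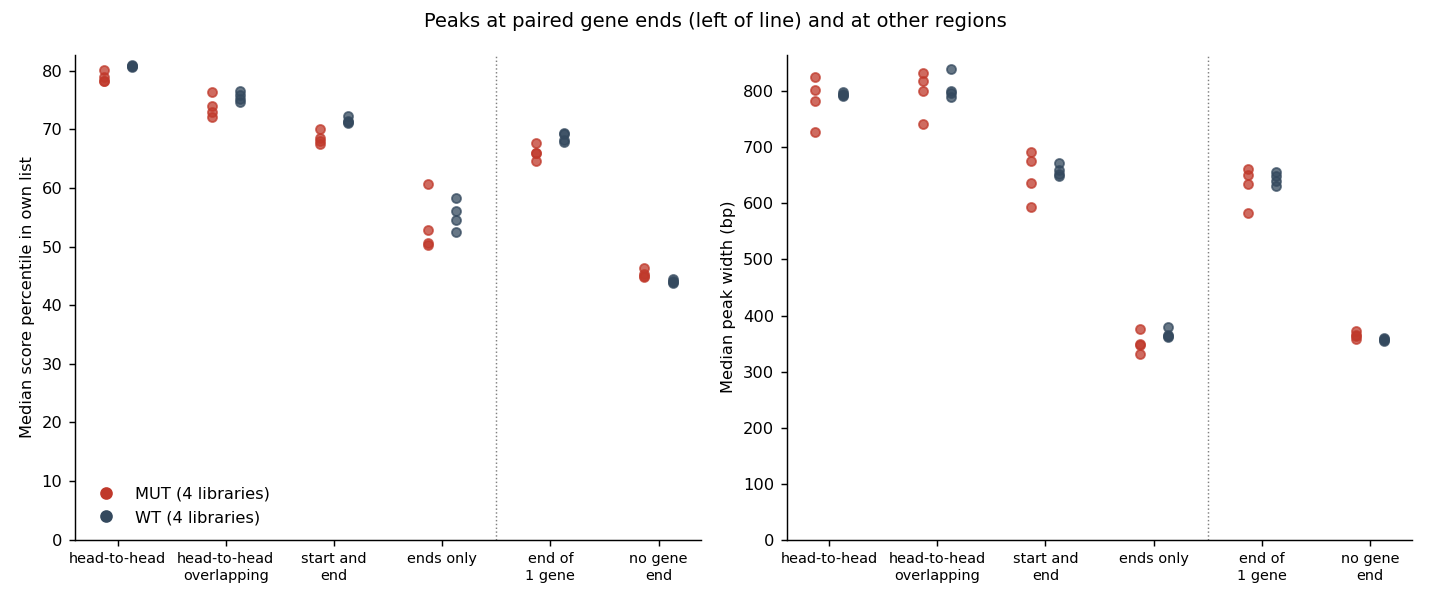
Median score percentile (left) and median peak width in bp (right) of the peaks in each of 4 arrangements of paired gene ends, and at regions with an end of 1 gene or none. Each point is 1 library, MUT left of WT. Head-to-head peaks had medians of 78.3 to 80.9 percentile points in the 8 libraries, and ends-only peaks 50.2 to 60.8.

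Set against regions with an end of 1 gene, paired-end regions were stronger, wider and more often called. Their median score percentile was 72.5, 74.9, 72.5 and 72.1 in the MUT libraries and 75.4, 75.5, 74.5 and 75.7 in the WT libraries. At regions with an end of 1 gene it was 65.9, 67.6, 65.9 and 64.6 in MUT and 69.3, 69.3, 67.8 and 68.1 in WT. The difference within a library was 6.82 ± 0.563 points (SD, n = 8 libraries), and paired-end regions were higher in every library. Their peaks were also wider by 89.9 ± 4.73 bp and were called at 3.20 ± 0.648 percentage points more of the regions (exact sign-flip test, p = 0.00781 for each of the 3 measures). Against regions with the start of only 1 gene, head-to-head peaks were 7.35 ± 0.846 points higher in percentile and 115 ± 5.28 bp wider, in 8 of 8 libraries (exact sign-flip test, p = 0.00781 each; comparisons added after the data were seen). Region width enters the rule, since a wide region reaches more gene ends. With gene ends counted within 1 kb of the region's midpoint, an alternative chosen after the data were seen, the differences between paired-end regions and those with 1 gene were 6.52 points and 89.2 bp, and the part of width was not tested. Among the upper 50% of each list by score the percentile difference was only 0.628 points. Percentiles are not compared between the genotypes, because lists of different length rank against different numbers of peaks.

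Most head-to-head regions lay over both starts. The rule keeps only regions within 1 kb of both, which limits the distances given here. The region contained both starts in 734 of 1017 cases (72.2%), 1 start in 155 and neither in 128. The midpoint of the region lay a median of 146.5 bp from the midpoint between the starts, and 96.5 bp where both starts were inside. Regions with both starts inside had a median score percentile of 83.1 and a median width of 1001 bp. Regions with neither start inside had a median percentile of 12.7 and a median width of 382.5 bp. Width itself helps decide how many starts a region holds, so these widths are a description. Widths differed little with the distance between the starts up to 500 bp. Median widths were 957 bp at pairs overlapping by more than 500 bp, 896 bp at starts up to 100 bp apart, 981 bp at 100 to 250 bp and 932.5 bp at 250 to 500 bp, and 750 bp at starts more than 500 bp apart. The last of these bins held 71 regions.

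**Figure D2:**
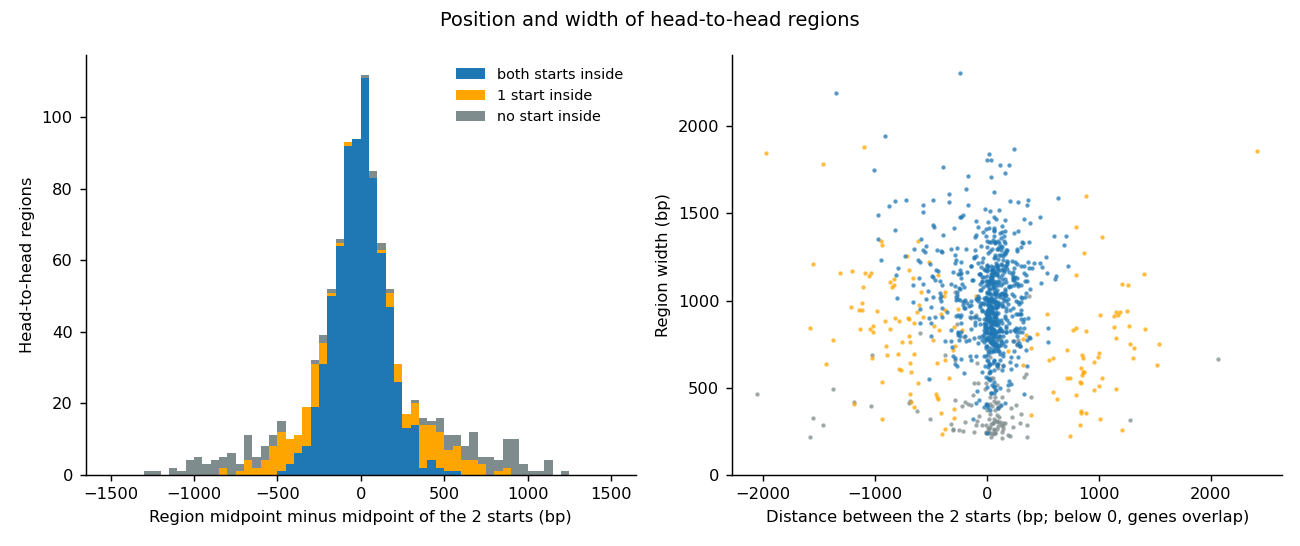
Left, number of head-to-head regions by the distance in bp between the region's midpoint and the midpoint of the starts, coloured by how many of the starts lie inside. Right, region width in bp against the distance between the starts in bp, each point 1 region. The 734 regions with both starts inside cluster around 0 on the left and around a width of 1001 bp on the right.

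Seen from the annotation, starts of head-to-head pairs were far more often inside a peak than unpaired starts. Unpaired here means that no start or end of another protein-coding gene lay within 1 kb. Of 1791 starts in head-to-head pairs with starts within 1 kb of each other, 86.7%, 87.1%, 87.3% and 85.9% were covered in the MUT libraries and 87.3%, 87.0%, 87.0% and 86.8% in the WT libraries. Of 14824 unpaired starts, 38.2%, 39.1%, 38.4% and 37.3% were covered in MUT and 38.7%, 38.7%, 38.1% and 38.0% in WT. The difference was 48.6 ± 0.300 percentage points (SD, n = 8 libraries; exact sign-flip test, p = 0.00781). Leaving out chemosensory receptor genes, which form large tandem families, put the unpaired share at 40.9 to 42.8%. Most of the 901 pairs were open at both starts. At 712 pairs (79.0%) each start had a peak in 8 of 8 libraries, at 61 (6.77%) 1 start did and the other had none in any library, and at 69 (7.66%) neither start had a peak in any library. By comparison 35.9% of unpaired starts had a peak in all 8 libraries and 59.1% in none.

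The pairs with no peak at either start were of many kinds, and 60 of the 69 held no predicted gene. Among them were Col4a1/Col4a2, which encode chains of basement membrane collagen, Zic1/Zic4, transcription factors of the developing brain, Gabra4/Gabrb1, subunits of a neuronal GABA receptor, and Peg3/Usp29, an imprinted pair. Others were Elp5/Ctdnep1, Tk1/Afmid and Rad51c/Tex14, which hold genes of tRNA modification, thymidine salvage and DNA repair used by many cells. Stat5b/Stat5a, which encode signal transducers used by NK cells, also stood here at their outermost starts 347 bp apart. Pinlyp/Xrcc1 shows the limit of this count, since a paired-end region at the 99.4 percentile began just beyond their outermost starts. Rad51c/Tex14 likewise had a paired-end region within 1 kb. No peak over the outermost starts therefore does not mean that none lies beside them. Pairs with a peak at only 1 start included Aptx/Dnaja1, a DNA repair gene and an HSP40 co-chaperone gene whose starts lie 801 bp apart, with the peak over the Dnaja1 start. These pairs were chosen for naming after their values were seen.

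Ends of genes meeting tail-to-tail were rarely covered. Of 1447 such ends, 1.52%, 1.80%, 1.73% and 1.24% lay inside a peak in the MUT libraries and 1.45%, 1.31%, 1.45% and 1.38% in the WT libraries. Unpaired ends, with no start or end of another gene within 1 kb, were covered at 0.651 to 0.763% in MUT and 0.670 to 0.750% in WT. The difference of 0.784 ± 0.179 percentage points held in 8 of 8 libraries (exact sign-flip test, p = 0.00781). Both shares were far below those of any class of starts.

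**Figure D3:**
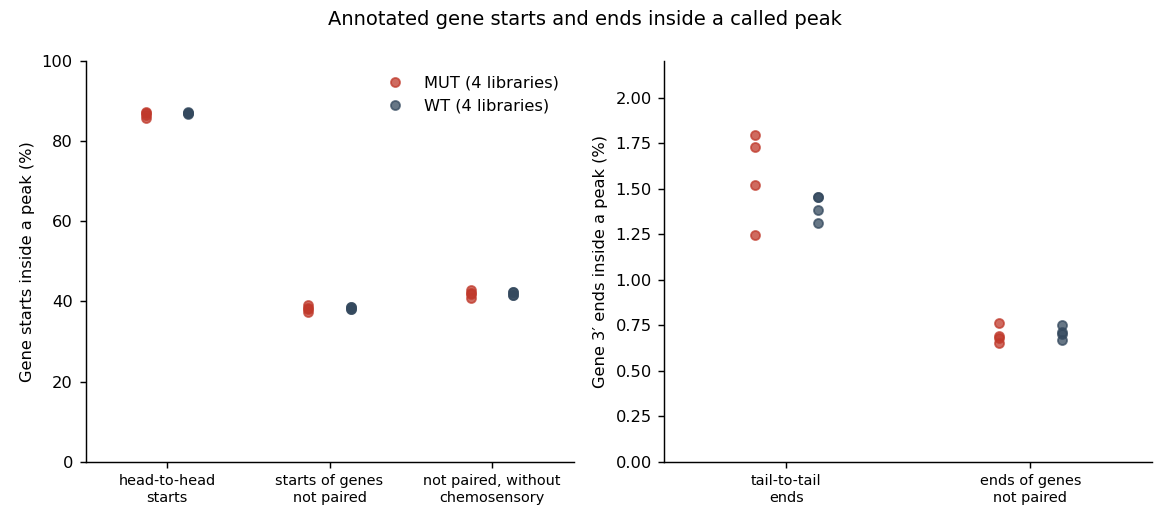
Share of annotated gene starts (left, %) and gene 3′ ends (right, %) inside a called peak, each point 1 library, MUT left of WT. Head-to-head starts were covered at 85.9 to 87.3%, starts with no other gene's start or end within 1 kb at 37.3 to 39.1%, and tail-to-tail ends at 1.24 to 1.80%.

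The promoters of head-to-head regions were CpG-rich, and some motifs were present in a larger share of them than of promoters at regions with an end of 1 gene. Of the promoters described, 1774 belonged to head-to-head regions, 418 to paired-end regions with a start of only 1 gene, 6773 to other regions with the start of 1 gene and 17492 to all genes with a sequence. Promoters of a pair overlap, so they are not independent, and no test was made. The median ratio of observed to expected CpG was 0.837 in head-to-head regions, 0.764 in regions with 1 start and 0.577 over all genes. The ETS motif CCGGAAG was present in 26.9%, 16.8% and 11.9% in the same order. The NRF1 motif GCGCANGCGC was present in 15.7%, 10.1% and 6.66%, and the YY1 motif ATGGCGG in 12.1%, 7.71% and 5.44%. Paired-end regions with a start of only 1 gene were nearer the head-to-head share for ETS, at 23.7%. For YY1 they stood between head-to-head and single starts, at 9.81%. Their NRF1 share of 8.13% was below both, and their median CpG ratio was 0.732. ETS factors, NRF1 and YY1 are known regulators of widely expressed genes. The GC box differed little between head-to-head and single starts, at 65.2% and 66.8%, against 46.3% over all genes, and the CCAAT box was at 40.2%, 39.0% and 39.2%. The TATA box TATAAA was present in 5.13%, 7.22% and 13.3%, and the RUNX motif TGTGGT, a site of lymphocyte factors, in 9.70%, 12.9% and 15.1%. The shares with heat shock elements at head-to-head regions lay between those of single starts and of all genes. GAANNTTC was present in 6.54%, 5.32% and 7.35% and TTCNNGAA in 7.50%, 6.38% and 7.64%.

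Genes for histones, mitochondrial proteins, DNA repair and chaperones were frequent at paired-end regions. Of 83 histone genes 51 (61.4%) had an end there, against 16.6% of all protein-coding genes. The shares were 49.3% of mitochondrial ribosomal protein genes (37 of 75), 46.5% of oxidative phosphorylation genes (47 of 101), 42.9% of aminoacyl-tRNA synthetase genes (15 of 35), 40.2% of DNA repair and replication genes (39 of 97) and 40.2% of chaperone genes (43 of 107). Proteasome genes stood at 26.5% (13 of 49), cytosolic ribosomal protein genes at 26.5% (22 of 83) and antigen presentation genes at 24.0% (6 of 25). Of NK receptors and adaptors 11.9% (5 of 42) had an end there, and of NK effectors, cytokines and lineage factors 8.62% (5 of 58). None of 14 myeloid or 13 erythroid and platelet markers had an end at a paired-end region. Only Cd79a among 12 B cell markers and Cd4 among 13 T cell markers did. These are counts of annotated arrangement and chromatin together, and no test of the lists was made.

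The region beside the end of Clip3 and the start of Alkbh6, a member of the AlkB dioxygenase family, had the highest mean score percentile of the 2154, 99.97. It was followed by Ikbkg/Fam3a, Trim12c/Gm38525, Hormad1/Golph3l and Ptcd2/Mrps27, at 99.9, 99.9, 99.9 and 99.7. Ikbkg encodes the NF-kB essential modulator NEMO, and Mrps27 and Ptcd2 encode proteins of mitochondrial translation and RNA metabolism. The Ptcd2/Mrps27 region (chr13:99344307-99344941, starts 89 bp apart) covered 623, 626, 635 and 625 bp in MUT and 630, 629, 634 and 625 bp in WT, a spread of a few bases. The widest regions were not the strongest. LOC108167694/Gm20783 spanned 2542 bp at a mean percentile of 42.6, and Lpxn/Zfp91, Rpl7/Rdh10, Ift80/Smc4 and Gm10840/Limd2 spanned 2192 to 2307 bp at 49.8 to 60.0. Regions with ends of 3 genes included Senp3/Tnfsf13/Tnfsfm13, Cmc4/Mtcp1/Brcc3, Sdhd/Timm8b/Nkapd1, Rfxank/Borcs8/Gm45929 and Gm45935/Setdb2/Cab39l, all at 91.1 to 96.7.

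Over all paired-end regions, the values of MUT and WT libraries overlapped. They held 4.87%, 4.42%, 4.72% and 4.93% of the peaks in MUT and 4.80%, 4.78%, 4.85% and 5.09% in WT. The means were 4.74 ± 0.227% and 4.88 ± 0.142% (SD, n = 4 each; exact two-sided permutation test, p = 0.429). A peak was called at 96.1 ± 1.78% of the regions in MUT and 95.7 ± 0.646% in WT (exact permutation test, p = 0.686). The median covered length was 759, 788, 776 and 727 bp in MUT and 779.5, 766, 765.5 and 778 bp in WT, with means of 762.5 ± 26.5 and 772.25 ± 7.53 bp (exact permutation test, p = 0.629). Head-to-head starts were covered at 86.7 ± 0.624% in MUT and 87.0 ± 0.182% in WT (exact permutation test, p = 0.486). The smallest p that 4 against 4 libraries allow is 0.0286. The values overlapped in each of these 4 measures, all at 0.686 after adjustment over the 4 exact tests, and a p above the threshold does not show that the groups are alike.

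Region by region, few paired-end regions differed in covered length. The length covered by peaks in each library was scaled to the library's total over consensus regions and tested on log2(bp + 200) with limma across all 50044 regions, so a log2 difference understates the change of short regions. Of the 2154 paired-end regions 7 passed at an adjusted p under 0.05, which is 0.325%, against 0.915% of all consensus regions. The share was 0.378% at regions with an end of 1 gene, close to that of paired-end regions, and 1.11% at regions with none. Of the 7 paired-end regions 2 were higher in MUT (0.681% of all regions were) and 5 lower (0.234% of all regions were). Without scaling the split turned to 4 higher and 2 lower. At an unadjusted p under 0.05 there were 197 paired-end regions (9.15%), 37 higher and 160 lower, against 5268 of all regions (10.5%), 2687 higher and 2581 lower. Without scaling these were 123 paired-end regions, 68 higher and 55 lower, and 5034 of all regions, 3570 higher and 1464 lower. The median log2 difference was -0.037 over paired-end regions, -0.034 over regions with an end of 1 gene, -0.0093 over regions with none and -0.019 over all.

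The split into higher and lower depended on the scaling. All 4 MUT lengths lay above all 4 WT lengths at 14 paired-end regions and below them at 116 (0.650% and 5.39%). The shares were 1.01% and 4.75% at regions with an end of 1 gene, and 2.54% and 3.73% over all regions. Without scaling the counts were 44 and 41 paired-end regions (2.04% and 1.90%). The unscaled shares were 2.55% and 1.82% at regions with an end of 1 gene, and 4.19% and 1.73% over all regions. The median log2 difference without scaling was -0.0022 over paired-end regions and 0.011 over all. The scale factors run from 0.910 in MUT replicate 27 to 1.06 in MUT replicate 29, and the MUT replicate 27 list is the longest. The small lower median of paired-end regions is therefore a value relative to the total covered length of each library.

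**Figure D4:**
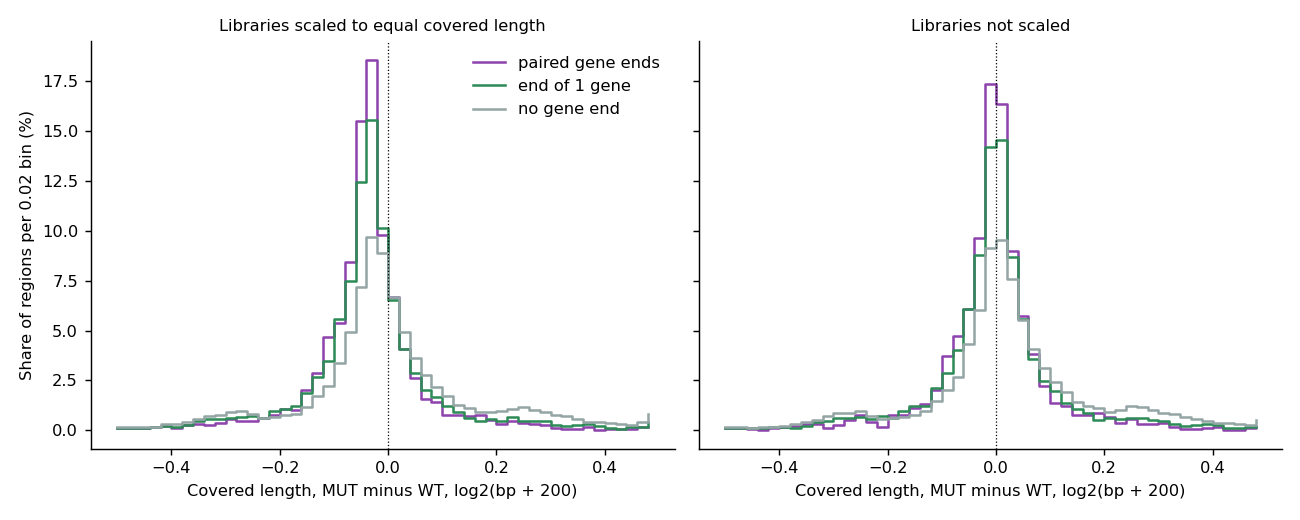
Distribution of the difference in covered length, MUT minus WT on log2(bp + 200), for paired-end regions, regions with an end of 1 gene and regions with none, as the share of regions per bin, with libraries scaled (left) and not scaled (right). With scaling the median of paired-end regions is -0.037, and without it -0.0022.

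The 2 regions that were higher in MUT were small peaks at gene ends without a start. Both were called in every MUT library and in no WT library, a pattern seen at 0.583% of all consensus regions. They entered the consensus regions through the MUT libraries alone, so their fitted values are a description and support nothing further. At Glrx2/Ro60 (chr1:143749722-143749972), beside the ends of genes for a mitochondrial glutaredoxin and an RNA-binding autoantigen, the MUT libraries had 203, 251, 200 and 200 bp and the WT libraries 0 bp. The log2 difference was 1.03 ± 0.15 (SE; limma, adjusted p = 0.012). It passed in 5 of 8 fits that each left out 1 library, with adjusted p-values of 0.074, 0.0692 and 0.0693 without MUT replicates 26, 27 and 28. At BC029722/Mmp24 (chr2:155817325-155817571), beside the end of a matrix metalloproteinase gene, the MUT libraries had 239, 221, 230 and 202 bp and the WT libraries 0 bp. The log2 difference was 1.06 ± 0.14 (SE; limma, adjusted p = 0.00895). It passed in 6 of 8 such fits, with 0.0697 and 0.066 without MUT replicates 26 and 28. Among regions with a peak in at least 4 lists neither passed (limma, adjusted p = 0.157 at Glrx2/Ro60 and 0.117 at BC029722/Mmp24). Mean score percentiles were 16.4 and 2.54, and 200 bp is the shortest peak in the lists, so both lie near the edge of being called. A fitted value against 0 bp depends on the pseudocount.

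Among the 5 lower regions the clearest was at Cox6b2/Fam71e2 (chr7:4752534-4753293). Cox6b2 encodes an isoform of a cytochrome c oxidase subunit known from testis, and the region holds its start and its end. The MUT libraries had 276, 437, 291 and 377 bp and the WT libraries 711, 725, 722 and 641 bp, without overlap. The means were 345.2 ± 75.6 and 699.8 ± 39.6 bp (SD, n = 4 each), a log2 difference of -0.76 ± 0.086 (SE; limma, adjusted p = 0.00523). The region passed in 8 of 8 fits that each left out 1 library. It missed the threshold among the upper 50% of peaks by score (limma, adjusted p = 0.692), and its mean percentile was 45.6.

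A region beside Toe1/Mutyh was called only in WT, while the main region of that pair did not pass the test. Toe1 encodes an RNA exonuclease and Mutyh a DNA glycosylase that removes adenine mispaired with oxidised guanine, and their starts lie 35 bp apart. In the small region (chr4:116806514-116806806, mean percentile 0.614) the MUT libraries had 0 bp and the WT libraries 263, 247, 244 and 212 bp. The log2 difference was -1.15 ± 0.13 (SE; limma, adjusted p = 0.00555), and 0.178% of all regions were called in every WT library and in no MUT library. This region entered through the WT libraries alone, so its fitted value is likewise a description. Its adjusted p was 0.0528 without WT replicate 4 and 0.0652 among regions with a peak in at least 4 lists (limma). The main region over both starts (chr4:116807179-116807959, mean percentile 94.9) had 707, 720, 781 and 724 bp in MUT and 702, 707, 704 and 767 bp in WT, a log2 difference of -0.015 ± 0.051 (SE; limma, adjusted p = 0.95) that was 0.02 without scaling. No region passed Fisher's exact test of called against not called after adjustment. The smallest p this test can give with 4 against 4 libraries is 0.0286. After adjustment over 50044 regions it could pass only if most regions had that pattern, so this outcome shows nothing about them. An unadjusted p under 0.05 was seen at 3 paired-end regions, which are by construction those called in every library of 1 genotype and none of the other.

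The Slc39a7/Rxrb promoter was the only head-to-head region with both starts inside that passed. Slc39a7 encodes the zinc transporter ZIP7 and Rxrb the retinoid X receptor beta, with starts 122 bp apart (chr17:34031492-34032510). The MUT libraries had 641, 875, 631 and 556 bp and the WT libraries 981, 980, 899 and 914 bp, so all MUT values lay below all WT values. The means were 675.8 ± 138 and 943.5 ± 43.2 bp (SD, n = 4 each), a log2 difference of -0.43 ± 0.071 (SE; limma, adjusted p = 0.0295). It passed in 2 of 8 fits without 1 library, and not without scaling (limma, adjusted p = 0.236).

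The other 2 lower regions changed less. At Traf4/Nek8 (chr11:78165022-78166180), the start of a TNF receptor-associated factor gene beside the end of a NIMA-related kinase gene, the MUT libraries had 793, 1034, 882 and 805 bp and the WT libraries 1072, 1145, 1010 and 1110 bp. Of the MUT values, 1 lay above the lowest WT value in bp, and none after scaling. The log2 difference was -0.29 ± 0.051 (SE; limma, adjusted p = 0.0419). At P3h4/Fkbp10 (chr11:100414156-100415203), genes of collagen modification whose strands were not known, the MUT libraries had 756, 914, 760 and 777 bp and the WT libraries 1023, 950, 957 and 940 bp. The groups did not overlap, and the log2 difference was -0.26 ± 0.042 (SE; limma, adjusted p = 0.0273). Each passed in 2 of 8 fits without 1 library, and neither passed without scaling (limma, adjusted p = 0.292 and 0.192).

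**Figure D5:**
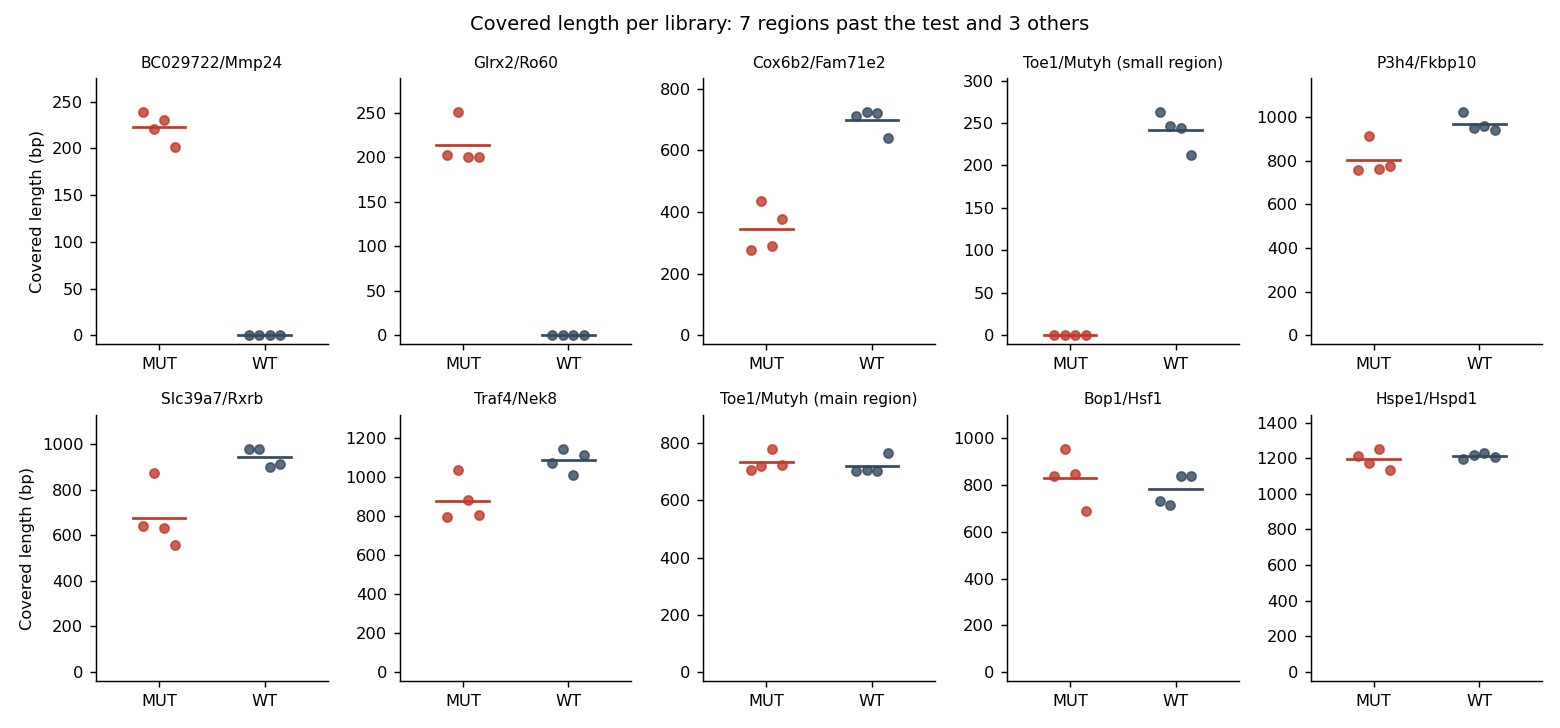
Covered length in bp per library at the 7 paired-end regions past the limma threshold and at 3 others (the main Toe1/Mutyh region, Bop1/Hsf1 and Hspe1/Hspd1), MUT left of WT, with the mean as a line. Of the 7, the first 2 have peaks in MUT libraries only and the other 5 are lower in MUT, while the last 3 overlap between the genotypes.

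A further 24 regions had an adjusted p from 0.05 to 0.25 (limma), 4 higher and 20 lower in MUT after scaling. No share of all regions was taken for this range, so the count has no background. At an unadjusted limma p under 0.05 the split of 37 higher and 160 lower paired-end regions became 68 and 55 without scaling. The lowest p among the lower ones was at Mrpl49/Fau, described with the ribosomal genes, and the next at Romo1/Nfs1, genes for a mitochondrial membrane protein and a cysteine desulfurase. Romo1/Nfs1 had 733, 823, 793 and 643 bp in MUT and 861, 938, 837 and 828 bp in WT, without overlap, at a log2 difference of -0.21 ± 0.04 (SE; limma, adjusted p = 0.069), and was singled out after its values were seen. Of the higher ones 3 are named by the rule for regions without overlap. Gm52051/Tnpo1, at the gene for the nuclear import receptor transportin 1, had 1705, 1847, 1701 and 1816 bp in MUT and 1388, 1405, 1389 and 1417 bp in WT. These groups were well apart, at a log2 difference of 0.26 ± 0.051 (SE; limma, adjusted p = 0.0812). Hnrnpc/Rpgrip1, at the gene for an abundant nuclear RNA-binding protein, had 1055, 1076, 1085 and 1029 bp in MUT and 913, 936, 898 and 923 bp in WT, a log2 difference of 0.14 ± 0.035 (SE; limma, adjusted p = 0.22). At Zcchc17/Snrnp40 the lengths were 812, 863, 853 and 795 bp in MUT and 769, 722, 717 and 704 bp in WT. All 4 MUT values again lay above the WT values, with a log2 difference of 0.12 (limma, adjusted p = 0.245).

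None of the 45 chaperone regions passed the limma test, and 6 (13.3%) had an unadjusted p under 0.05, against 10.5% of all regions. A peak was called in 8 of 8 libraries at 43 of them and 23 were head-to-head. Their median log2 difference was -0.035 (-0.0021 without scaling), against -0.019 over all regions, and after scaling the MUT lengths lay below the WT lengths at 5 (3.73% of all regions did) and above them at none. Without scaling they lay below at 1 and above at none. Hsf1 itself shares a region with Bop1, a ribosome biogenesis gene (chr15:76476991-76477947, mean percentile 99.0). It had 838, 956, 848 and 687 bp in MUT and 732, 713, 841 and 840 bp in WT, which overlap, at a log2 difference of 0.032 ± 0.069 (SE; limma, adjusted p = 0.883). Hspe1/Hspd1, whose promoter is printed above, had 1215, 1174, 1254 and 1132 bp in MUT and 1195, 1218, 1230 and 1205 bp in WT (chr1:55087420-55088673). The groups overlapped, at a log2 difference of -0.057 ± 0.042 (SE; limma, adjusted p = 0.617).

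The stress-inducible HSP70 gene Hspa1a and its neighbour Hspa1l share a region (chr17:34971939-34972780, starts 547 bp apart) that had the lowest p of the always-named chaperone regions and did not pass the test. It had 731, 644, 833 and 687 bp in MUT and 842, 818, 827 and 787 bp in WT, at a log2 difference of -0.18 ± 0.067 (SE; limma, adjusted p = 0.362). In bp 1 MUT value lay within the WT range, and after scaling none did. Ppp6r1/Hspbp1, at the gene for an HSP70-binding co-chaperone, had a log2 difference of -0.32 (limma, adjusted p = 0.103), and Dnajc30/Bud23 one of -0.29 (limma, adjusted p = 0.354). Both were without overlap after scaling and were singled out after their values were seen.

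The remaining named chaperone pairs did not pass the test. Subunits of the cytosolic chaperonin CCT were represented by Tsacc/Cct3, Cct5/Atpsckmt and Cct7/Pradc1, with log2 differences of 0.059, 0.012 and -0.047. The Tcp1/Mrpl18 region, 286 bp wide at the 1.18 percentile, had -0.10. Fubp1/Dnajb4, which joins a single-strand DNA-binding protein gene to an HSP40 co-chaperone gene, had -0.0023, and Nkiras2/Dnajc7 -0.00028. Bag1/Chmp5, Vipas39/Ahsa1, Lrrc42/Hspb11 and Hspa14/Cdnf had -0.041, -0.038, -0.024 and -0.14. Hspa14/Cdnf varied most within a genotype, with 1218, 1152, 1037 and 657 bp in MUT and 1201, 907, 1159 and 1083 bp in WT. Bag1 and Ahsa1 encode co-chaperones of HSP70 and HSP90. All of these had overlapping groups and adjusted p-values of at least 0.631 (limma). The values of Fubp1/Dnajb4, Nkiras2/Dnajc7 and Lrrc42/Hspb11 turned positive without scaling, at 0.037, 0.036 and 0.013.

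DNA repair genes gave 45 regions, 41 of them with a peak in all 8 libraries and 32 head-to-head. The only one past the limma threshold, which 0.915% of all regions passed, was the small Toe1/Mutyh region above. That region entered through the WT libraries alone, so its passing is a description. The median log2 difference was -0.035, which turned to 0.00062 without scaling. Brca1/Nbr1, with starts 152 bp apart, varied by few bases (chr11:101551826-101553198). It had 1359, 1366, 1363 and 1361 bp in MUT and 1373, 1371, 1371 and 1371 bp in WT, at a log2 difference of -0.047 ± 0.043 (SE; limma, adjusted p = 0.715). Atm/Npat, which joins a DNA damage kinase to a histone gene activator, had a log2 difference of 0.049 (limma, adjusted p = 0.783), and Mcm4/Prkdc, a replicative helicase subunit and a kinase of end joining, -0.087 (limma, adjusted p = 0.702). Trmt6/Mcm8 and Rars2/Orc3 stood at the 99.2 and 98.8 percentile without a difference past the test.

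Of 50 oxidative phosphorylation regions 49 had a peak in all 8 libraries, and their median percentile was 86.5. Only Cox6b2/Fam71e2 passed the limma test, as did 0.915% of all regions. Their median log2 difference was -0.043. An unadjusted limma p under 0.05 was seen at 7 (14.0%), against 10.5% of all regions, and at 2 without scaling. Mitochondrial ribosomal protein genes had 42 regions, 28 of them head-to-head, none past the limma test (3 at an unadjusted p under 0.05) and a median of -0.036. Cytosolic ribosomal protein genes had 26 regions with a median of -0.049 and none past the limma test. Of these 6 (23.1%) had an unadjusted p under 0.05, against 10.5% of all regions, and at 6 the scaled MUT lengths lay below the WT lengths (3.73% of all regions did). Without scaling both counts were 3, where the shares of all regions were 10.1% and 1.73%. The lowest p among these was at Mrpl49/Fau, which belongs to both ribosomal lists (log2 difference -0.19; limma, adjusted p = 0.0645). Histone genes had 35 regions, 32 with a peak in all 8 libraries, none past the limma test (1 at an unadjusted p under 0.05) and a median of -0.048. H2ac12/H2bc12, whose 3 CCAAT boxes are printed above, had 1228, 1155, 1199 and 1059 bp in MUT and 1130, 1200, 1187 and 1189 bp in WT, which overlap. Aminoacyl-tRNA synthetase genes had 18 regions, Zfp-named zinc finger genes 48 and proteasome genes 18, all without a region past the limma test (1, 4 and 1 at an unadjusted p under 0.05), with medians of -0.045, -0.032 and -0.056. Without scaling the medians of these 7 lists lay between -0.021 and -0.00013. Reads of near-identical histone genes may map to more than 1 copy, and the sources used here do not say how such reads were treated.

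Other named head-to-head pairs had a peak in every library. Psmb9/Tap1, an immunoproteasome subunit and a peptide transporter of antigen presentation, had 1029, 1028, 1039 and 1039 bp in MUT and 983, 1039, 991 and 995 bp in WT (chr17:34186886-34187924). The log2 difference was 0.001 ± 0.043 (SE; limma, adjusted p = 0.9999). None of the 10 antigen presentation regions passed, and 1 had an unadjusted limma p under 0.05, against 10.5% of all regions. Their median log2 difference was -0.006, which turned to 0.028 without scaling. Paics/Ppat, enzymes of purine synthesis with starts that overlap by 276 bp, had 1214 ± 11.7 bp in MUT and 1194 ± 11.7 bp in WT (SD, n = 4 each), with a log2 difference of -0.017 that turned to 0.021 without scaling (limma, adjusted p = 0.923). Gart/Son, whose starts lie 852 bp apart, had a separate region beside each start, with log2 differences of -0.035 and 0.039 (limma, adjusted p = 0.749 and 0.867). Surf2/Surf1, of a cluster of closely packed housekeeping genes, had a log2 difference of 0.018 (limma, adjusted p = 0.869).

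NK cell genes contributed 3 regions for receptors and adaptors and 6 for effectors, cytokines and lineage factors, none of them known to be head-to-head. None passed the limma test, and the median log2 differences were 0.034 and 0.11. An unadjusted limma p under 0.05 was seen at none of the 3 and at 1 of the 6, against 10.5% of all regions. Ccl3/Ccl4, neighbouring chemokine genes, had 1187, 1287, 1296 and 1137 bp in MUT and 1050, 1173, 1118 and 1172 bp in WT, which overlap (log2 difference 0.064; limma, adjusted p = 0.586). Lim2/Nkg7, at a cytotoxic granule gene, had 949, 959, 939 and 954 bp in MUT and 940, 957, 951 and 959 bp in WT. Klre1/Klrd1 and Tyrobp/Hcst, at genes of receptors and their signalling adaptors, had log2 differences of -0.00089 (0.034 without scaling) and 0.034, and Il1rl1/Il18r1 one of 0.13 (limma, adjusted p of at least 0.569 for these 3). A small region at Cdc34/Gzmm, at the gene for granzyme M, was called in 4 MUT libraries and 1 WT library at the 4.36 percentile (limma, adjusted p = 0.385). The regions at markers of other lymphocytes were weak and irregular. Gpr162/Cd4 was called in 3 MUT libraries and 1 WT library at the 13.2 percentile, and Cd79a/Arhgef1 in 3 MUT and 4 WT libraries at the 0.944 percentile.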

How the data were processed

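ATAC-seq of splenic NK cells from 4 MUT and 4 WT mice was deposited by the authors as 8 peak lists, 1 per library, each with positions and scores. The authors' score column has no name or stated unit, and it was used only to rank peaks within their own list. The submitters' processing notes name mm10 (GRCm38), DiffBind 3.0.12, Bowtie2 2.3.4.1, Trimmomatic and DESeq2 without saying what each was used for. The sources used here give no peak caller, no threshold and no read shift, and depth is unknown. What was called open therefore depends on a caller setting that cannot be checked, and no count model was run.

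Peaks were merged at an overlap of 1 bp, and regions with a peak in at least 2 lists were kept. Gene ends came from RefSeq on GRCm38.p6 (21887 protein-coding genes on nuclear chromosomes), and strand from the RefSeq promoter table (17492 of these genes). The bp of each region covered by peaks were scaled by each library's total over consensus regions and tested with limma 3.58.1 (trended empirical Bayes, Benjamini-Hochberg adjustment over 50044 regions) on log2(bp + 200). Lengths printed in bp are unscaled. Library values were compared between genotypes by an exact two-sided permutation test over 70 assignments, and within libraries by an exact two-sided sign-flip test over 256 sign patterns. The scripts were tested on simulated data. Python 3.11.15, numpy 2.4.6, pandas 2.3.3, scipy 1.17.1 and R 4.3.3 were used.

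Members and gene lists were chosen with earlier results of these data known, and so were the tests. Regions were named by a fixed rule. It took up to 10 per direction past the limma threshold (with the lowest p among regions without overlap where fewer than 5 passed), all regions called in 4 of 4 against 0 of 4 libraries, the 5 highest-ranked, the 5 widest and 5 with the most genes. It added a list of always-named genes and the 3 highest-ranked regions of each gene list. Tnf, Lta, Cd3d, Cd3g, Psmb1 and Tbp were among the always-named genes and had no paired-end region. Regions or pairs outside the rule were picked with their values in view. The alternatives tried were another window (500 bp and 2 kb), stricter lists, equal list sizes, other pseudocounts, no scaling and leaving out each library. Not every region that the rule names is reported here.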

Additional observations from a re-analysis of the deposited data

Results flagged for a closer look

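In groups of 4 libraries, 1 library stood far from the other 3 in 14 of 86 groups examined. The rule used would flag about 1 in 20 groups of independent, normally distributed values. Covered lengths have a floor of 200 bp, include groups of 0 bp only, and come from the same libraries. The count is therefore a description, and no excess over chance is read from it. MUT replicate 27, the longest list, had a median score percentile of 74.9 at paired-end regions, against 72.1 to 72.5 in the other MUT libraries. It also covered 251 bp at Glrx2/Ro60 against 200 to 203 bp, 914 bp at P3h4/Fkbp10 against 756 to 777 bp, 1144 bp at Tsacc/Cct3 against 869 to 903 bp, and 334 bp at a small Psmb9/Tap1 region that had no peak in the other MUT libraries. MUT replicate 29 covered 1144 bp at Cct5/Atpsckmt against 1202 to 1207 bp and 536 bp at the first Gart/Son region against 561 to 565 bp.

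Among the WT libraries, replicate 4 covered 503 bp at the second Gart/Son region against 660 to 676 bp, 1193 bp at Cct7/Pradc1 against 1424 to 1430 bp and 1373 bp at Brca1/Nbr1 against 1371 bp. Replicate 6 covered 261 bp at the small Hspe1/Hspd1 region against 200 to 210 bp. Replicate 7 covered 767 bp at the main Toe1/Mutyh region against 702 to 707 bp, 641 bp at Cox6b2/Fam71e2 against 711 to 725 bp, and 202 bp at the small Psmb9/Tap1 region, which had no peak in the other WT libraries. The part of list length in these values was not tested.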

How the results depend on the processing

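The differences in score percentile, width and share called between paired-end regions and those with 1 gene, those between head-to-head and other regions, and the coverage of starts and ends kept their direction in 8 of 8 libraries, or in 7 of 7 without 1 library, under every alternative that could be run. Between paired-end regions and those with 1 gene, the percentile difference lay between 0.628 and 7.34 points. The width difference there lay between 38.25 and 108 bp, and that in share called between 1.56 and 3.49 percentage points. Head-to-head peaks exceeded members with a start beside an end or ends only by 2.93 to 16.3 percentile points, and single starts by 1.37 to 7.69. The difference of start coverage lay between 44.6 and 51.7 percentage points. No comparison of library values between MUT and WT passed under any alternative. With 1 library left out the lowest p was 0.114 (exact permutation test), and a p above the threshold does not show that the groups are alike. The difference in the share of regions called was small and turned to -0.821 with an equal number of the strongest peaks per list, to -2.07 among the upper 50% of peaks by score and to -0.0241 with a peak in at least 4 lists, and it ran from -0.335 to 1.20 when 1 library was left out. The difference in median length ran from -16.6 to 2.71 bp when 1 library was left out, the positive value being without MUT replicate 29. The cause was not tested.

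The 7 regions past the limma test became 11 with an equal number of peaks, 3 among the upper 50% by score, 4 with gene ends within 500 bp, 18 within 2 kb and 1 with a peak in at least 4 lists, and 4 to 10 when 1 library was left out (4 without MUT replicate 26 and 4 without WT replicate 4). In the order of the settings, these were 0.531%, 0.178%, 0.248%, 0.585% and 0.0481% of paired-end regions. Of all regions 0.894%, 1.16%, 0.915%, 0.915% and 0.530% passed. With 1 library left out the shares were 0.186 to 0.468% of paired-end regions and 0.912 to 1.56% of all regions. The windows of 500 bp and 2 kb change the number of regions counted, and the requirement of 4 lists the number tested. Regions called in 4 of 4 against 0 of 4 libraries numbered 3, and 6, 1, 0 and 10 under the first 4 of these settings, and 3 to 6 when 1 library was left out. In the main setting 0.583% of all regions had this pattern with peaks in MUT and 0.178% with peaks in WT. Cox6b2/Fam71e2 passed in 8 of 8 fits that left out 1 library and in 11 of 12 others. These others include the 500 bp and 2 kb windows, the region midpoint and the removal of predicted genes. Those settings change only which regions are counted, so its fit was the same as the main one and had to pass. No paired analysis was possible because the MUT and WT replicate numbers are not shared. Without scaling 6 regions passed the limma test (0.279%, against 0.939% of all regions), of which 4 were higher and 2 lower in MUT. Depth and the call threshold are unknown, and their part in these values was not tested.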
